A study of Mus musculus with 6 samples.

Results

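Among the open chromatin regions of 3 bone marrow cell populations, 3377 of 69171 (4.88%) were called in plasma cells and immature B cells and missing from the Aire-reporter-positive cells called pc-BMACs. They were chosen by merging the peaks of 6 lists wherever these overlapped by at least 1 bp and keeping each merged region that held a peak of both plasma cell lists and both immature B cell lists and no peak of either pc-BMAC list. Presence of peaks in all 6 lists therefore chose the members, and the counts of members are a description with no test. Of the 25402 regions called in all 4 plasma cell and immature B cell lists, the members made up 13.3%, while 20468 regions were called in all 6 lists.

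All 3 groups came from marrow of naive Adig mice of the Balb/c strain, which carry a GFP reporter of Aire. The sorting markers given for plasma cells are AireGFP-B220-CD138+TACI+. Those for pc-BMACs, AireGFP+B220-CD138+TACI+, differ from them by the reporter alone, and immature B cells have AireGFP-B220+CD138-TACI-IgM+. There were 2 libraries in each group, each made from between 2000 and 15000 cells. The labels do not state whether libraries of a group came from separate animals, the mice's age, or what drives the reporter beyond its name.

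ATAC-seq marks DNA that a transposase can reach, which in most cells means active promoters and distal regulatory elements such as enhancers. B cell development runs from progenitors that depend on the interleukin-7 receptor and rearrange their antibody genes with the RAG recombinase, through immature B cells, to plasma cells, which give up much of the B cell programme under Blimp-1 (Prdm1) and turn to antibody secretion under Xbp1. Aire is best known for driving tissue-restricted antigens in thymic epithelium.

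The lists held 34070 to 51643 peaks, with the fewest in pc-BMACs 2 and the most in immature B cells 1. They give no read counts, so depth is unknown, and a region that is not called in a library is not shown to be closed there. All 12 plasma cell marker genes had a region in both plasma cell and both pc-BMAC libraries, but so did 12 and 10 of them in the immature B cell libraries, and 12 to 14 of 14 B cell markers had one in each library, so these counts do not tell the groups apart. Myeloid markers had a region for 6 to 8 of 11 genes and dendritic cell markers for 7 to 9 of 9 in each library. Of 12 markers of T, NK and innate lymphoid cells, 10 had a region in each plasma cell library, 9 and 8 in the immature B cell libraries and 8 and 6 in the pc-BMAC libraries, with Cd8a and Ncr1 at 0 throughout. Of 10 erythroid and megakaryocyte markers, 9 had a region in plasma cells 1 against 4 or 5 in the other 5 libraries. Whether other cell types contributed to the members was not tested.

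Promoters at which a member covers the transcription start show what such a region looks like in sequence. The 250 bases before the start are given for 6 of these genes, from RefSeq on the GRCm38.p6 build, the assembly named mm10. Igll1 (the surrogate light chain component λ5 of the pre-B cell receptor), Rag2 (a subunit of the V(D)J recombinase), Il2ra (the CD25 chain of the interleukin-2 receptor) and Runx3 (a lymphocyte transcription factor) come from the gene lists. Junb (an AP-1 transcription factor) holds the widest member, and Cxcr3 (a chemokine receptor) was chosen after its values were seen. Each runs 5′ to 3′ toward the start, and capitals mark matches, on either strand, to the E boxes CAGCTG and CAGGTG bound by E proteins, to the RUNX motif TGTGGTT and to the PU.1 motif GAGGAAGT.
Igll1, chr16:16863986-16864235, minus strand: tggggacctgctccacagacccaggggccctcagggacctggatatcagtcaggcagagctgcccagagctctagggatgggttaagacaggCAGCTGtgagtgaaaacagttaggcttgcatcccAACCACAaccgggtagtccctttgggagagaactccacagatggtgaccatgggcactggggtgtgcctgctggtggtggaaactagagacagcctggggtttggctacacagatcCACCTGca
Rag2, chr2:101624462-101624711, plus strand: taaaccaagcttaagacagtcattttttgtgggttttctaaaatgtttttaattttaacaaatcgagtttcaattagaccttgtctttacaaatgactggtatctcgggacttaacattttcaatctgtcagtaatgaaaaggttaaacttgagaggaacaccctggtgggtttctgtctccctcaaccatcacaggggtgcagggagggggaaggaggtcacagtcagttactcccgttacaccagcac
Il2ra, chr2:11642542-11642791, plus strand: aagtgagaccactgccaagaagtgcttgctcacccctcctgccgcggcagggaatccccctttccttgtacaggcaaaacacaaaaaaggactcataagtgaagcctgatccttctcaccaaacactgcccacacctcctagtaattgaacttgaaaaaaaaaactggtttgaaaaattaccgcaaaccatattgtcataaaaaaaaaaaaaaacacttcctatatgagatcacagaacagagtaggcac
Runx3, chr4:135120395-135120644, plus strand: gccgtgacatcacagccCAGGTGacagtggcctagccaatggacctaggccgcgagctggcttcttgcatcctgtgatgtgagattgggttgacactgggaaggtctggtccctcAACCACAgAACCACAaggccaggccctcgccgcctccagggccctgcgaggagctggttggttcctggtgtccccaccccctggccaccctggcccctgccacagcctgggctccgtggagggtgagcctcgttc
Cxcr3, chrX:101734148-101734397, minus strand: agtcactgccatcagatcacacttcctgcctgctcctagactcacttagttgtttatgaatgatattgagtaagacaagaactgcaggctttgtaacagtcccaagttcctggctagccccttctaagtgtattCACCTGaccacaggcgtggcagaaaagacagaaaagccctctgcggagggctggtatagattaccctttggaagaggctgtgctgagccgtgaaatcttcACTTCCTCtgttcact
Junb, chr8:84978749-84978998, minus strand: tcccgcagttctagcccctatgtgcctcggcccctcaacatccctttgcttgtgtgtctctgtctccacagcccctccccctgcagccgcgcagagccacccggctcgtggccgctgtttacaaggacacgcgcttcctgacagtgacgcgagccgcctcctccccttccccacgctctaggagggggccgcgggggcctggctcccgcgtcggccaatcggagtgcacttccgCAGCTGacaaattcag

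Igll1 held CAGCTG at position -158, a RUNX match at -124 and CAGGTG at -8, counted from the start, and Runx3 held an E box at -233 and RUNX matches at -135 and -127. Cxcr3 held CAGGTG at -116 and a PU.1 match at -16, and Junb held CAGCTG at -16. Rag2 and Il2ra held none of these letters in the bases shown, which says nothing of the factors. A match is a description of the sequence and not a bound site.

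At the Igll1 start the peaks were 565 and 678 bp wide in plasma cells 1 and 2 and 515 and 450 bp in immature B cells 1 and 2. Runx3 showed the same order, with 487 and 457 bp in plasma cells against 423 and 349 bp in immature B cells. Cxcr3 did as well, with 447 and 527 bp against 189 and 252 bp. At these 3 starts both plasma cell peaks were wider than both immature B cell peaks, an order found at 2.25% of all members. The Rag2 start went the other way, at 150 and 335 bp in plasma cells and 1105 and 543 bp in immature B cells, and one of its plasma cell peaks had the smallest width in the lists. The Il2ra start was alike in width in the 4 libraries, at 940, 905, 1072 and 928 bp, so that the groups overlapped. The Junb member was 4771 and 4414 bp wide in plasma cells and 7155 and 6353 bp in immature B cells. Of the 7 list genes with a start inside a member, H2-Oa, Il7r and Prf1 are not shown in sequence. Their plasma cell peaks were 205 and 190 bp (H2-Oa), 231 and 261 bp (Il7r) and 289 and 187 bp (Prf1) wide. In immature B cells they were 915 and 749 bp, 1331 and 535 bp, and 555 and 271 bp.

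Over all 3377 members, peaks were narrower in plasma cells than in immature B cells. The median summed peak width per member was 271 and 307 bp in plasma cells 1 and 2 and 594 and 438 bp in immature B cells 1 and 2, so the libraries of the groups did not overlap. The group means were 289 ± 25.5 bp and 516 ± 110 bp (SD, n = 2 libraries each), a ratio of 0.560. A two-sided exact permutation test over the 4 libraries gave p = 0.333, the smallest p that 2 against 2 libraries can give, whatever the spread within the groups. The difference between these libraries may be technical. Averaged within each group, the peak was narrower in plasma cells at 93.1% of members. Within the libraries that share the number R4 in their labels, plasma cells 2 and immature B cells 2, the ratio was 0.701 and 80.0% of members were narrower in plasma cells. What the R number stands for is not given in the sources used here, and no pc-BMAC library carries R4. R2 is shared by immature B cells 1 and pc-BMACs 1, and R3 by plasma cells 1 and pc-BMACs 2.

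Regions called in all 6 lists were wider in every library, an order that merging at 1 bp favours, and showed a smaller gap between the groups. Their medians were 711 and 701 bp in plasma cells and 1034 and 767 bp in immature B cells, a ratio of 0.784, or 0.914 within R4. The difference between this ratio and that of the members was not tested. Of the members, 15.3% in plasma cells 1 and 10.5% in plasma cells 2 stood at the smallest peak width of 150 bp, against 0.622% and 2.31% in immature B cells 1 and 2. Both plasma cell libraries thus had a larger share of members at that limit than either immature B cell library. Over every region a list called, the share was 9.87% and 9.86% in plasma cells 1 and 2 and 7.23% and 10.0% in immature B cells 1 and 2. The members' shares were thus above this in plasma cells, by little in plasma cells 2, and well below it in immature B cells.

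**Figure D1:**
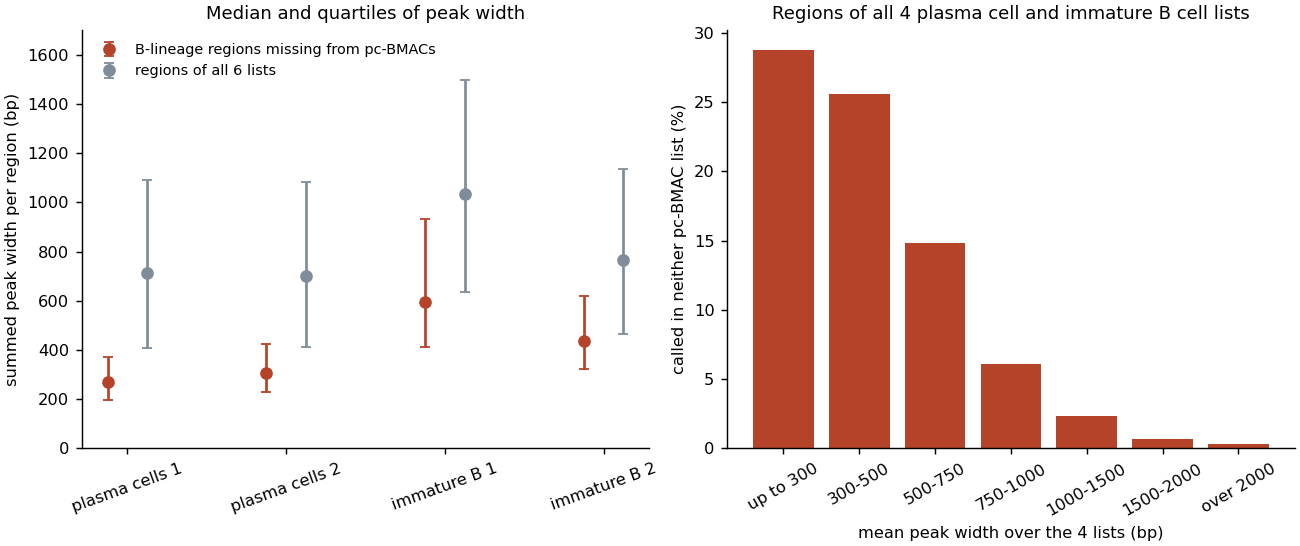
Left, median summed peak width per region in bp (points) with quartiles (bars) in each plasma cell and immature B cell library, for the 3377 members and the 20468 regions of all 6 lists; the members' medians lie between 271 and 594 bp and those of all 6 lists between 701 and 1034 bp. Right, the percentage of regions called in all 4 of these lists that neither pc-BMAC list holds, by mean peak width, which goes from 28.8% in the narrowest class to 0.309% in the widest.

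Both plasma cell peaks were narrower than both immature B cell peaks at 2551 members (75.5%), the ranges overlapped at 750 (22.2%), and both plasma cell peaks were wider at 76 (2.25%). The same orders held at 54.4% and 6.85% of the regions of all 6 lists for narrower and wider. Among the 76 were members at Gpr146, 24 bp from Cd69 (an early activation marker and tissue-retention receptor) and within Oas3 (an interferon-induced enzyme). The Cd69 member was 825 and 1333 bp wide in plasma cells and 584 and 780 bp in immature B cells. The Oas3 member was 652 and 574 bp wide against 150 and 247 bp, and the Gpr146 member 1232 and 1222 bp against 1040 and 1024 bp. These 3 were picked after their values were seen.

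The plasma cell peaks of members lay mostly inside the immature B cell peaks. Between 91.9% and 97.6% of their base pairs, over the 4 pairs of libraries, fell within an immature B cell peak, and between 63.0% and 88.1% of members had their plasma cell peaks fully inside. Across members the Spearman correlation of width was 0.723 between the plasma cell libraries, 0.821 between the immature B cell libraries and 0.485 to 0.543 across the groups. Over regions of all 6 lists these correlations were 0.947, 0.905 and 0.806 to 0.850. Members are not independent replicates, and both sets share the libraries and the calling limit, so no p is given.

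Absence from pc-BMACs went with width. The rule itself favours this order, since an overlap of 1 bp excludes a region and a wider region has more bases to overlap. Of the regions called in all 4 plasma cell and immature B cell lists with a mean width up to 300 bp, 745 of 2591 (28.8%) were members. The share was 25.6% from 300 to 500 bp (1457 regions), 14.9% from 500 to 750 bp (792), 6.13% from 750 to 1000 bp (253), 2.35% from 1000 to 1500 bp (114) and 0.707% from 1500 to 2000 bp (13). Above 2000 bp, 3 of 970 regions (0.309%) were members. The part of the rule in this order was not tested. Nor was the part of peak calling depth, since the lists give no signal.

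The 3 widest members lay at Junb, Lhpp and Pfn1. The Junb member, chr8:84974211-84981365, covered the whole of this single-region gene and was 5673 bp wide on average, and the nearest pc-BMAC peak lay 2384 bp away. The Lhpp member, chr7:132696563-132700880 inside the gene of a histidine phosphatase, was 2424 and 3082 bp wide in plasma cells and 4318 and 2950 bp in immature B cells. The nearest pc-BMAC peak to it was 9737 bp away, although pc-BMACs 1 and 2 called 7 and 6 other regions of Lhpp's 11. The Pfn1 member, chr11:70652973-70656278 at the gene of the actin-binding protein profilin 1, was 2733 and 2402 bp wide in plasma cells and 3306 and 2839 bp in immature B cells. It was the only region of Pfn1 in any list.

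Further wide members had as nearest gene Adra2c (an adrenergic receptor), Tcf3 (the E2A transcription factors), Ptger4 (the prostaglandin E2 receptor EP4), Rhof, Nrm and Itpr2. The Adra2c member lay 31593 bp outside that gene and covered a transcription start there. The Itpr2 member lay 26384 bp outside its gene. The Tcf3 member, chr10:80429210-80432449 inside the gene, was 1115 and 1397 bp wide in plasma cells and 3240 and 1494 bp in immature B cells, with a pc-BMAC peak 496 bp away. The Ptger4 member, chr15:5260966-5263543 and 16779 bp outside the gene, measured 1324 and 1599 bp against 2562 and 1389 bp. At Tcf3 the groups did not overlap, and at Ptger4 they did.

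Just inside the rule, the member nearest to a pc-BMAC peak, chr19:32111866-32113103 at Asah2, was 54 bp from it. In all, 86 members lay within 500 bp of a pc-BMAC peak and 198 (5.86%) within 1 kb. Just outside, 1557 regions of all 4 plasma cell and immature B cell lists were called in 1 pc-BMAC list, 1228 of them in pc-BMACs 1 and 329 in pc-BMACs 2. The pc-BMAC peaks in them covered a median of 235 bp, and 367 of them stood at the smallest width of 150 bp. Another 2900 regions were called in 3 of the 4 plasma cell and immature B cell lists and in no pc-BMAC list.

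The median distance from a member to a pc-BMAC peak was 14052 bp (quartiles 4476 and 45324 bp), beside 12659.5 bp for regions of immature B cells alone, and 462 members (13.7%) were more than 100 kb away. Under a rule that counts a library only where its peaks cover 50% or more of the region, the median was 3738 bp. That rule also admits regions that hold a pc-BMAC peak over less than 50% of their length. Its median is therefore not one over members alone. The members' median distance to the lists taken singly was 14635 bp for pc-BMACs 1 and 17803 bp for pc-BMACs 2.

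Members lay mostly away from gene ends. Of the 3377, 296 (8.77%) were within 1 kb of an end of a protein-coding gene, against 47.0% of the regions of all 6 lists and 19.6% of all merged regions. A low share was common to the patterns of fewer lists, at 5.69% for immature B cells alone, 6.82% for plasma cells alone, 7.04% for pc-BMACs alone and 8.98% for plasma cells with pc-BMACs. Outside chromosome 18, for which the table of starts used here held no entry, 178 of 3267 members (5.45%) covered a transcription start, against 42.5% of the regions of all 6 lists, 1.95% of those of immature B cells alone and 3.66% of those of plasma cells alone. The median distance to a start was 20943 bp for members, 14759 bp for all merged regions and 3963 bp for the regions of all 6 lists.

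A protein-coding gene was overlapped by 52.8% of members. This was close to the 52.0% of regions called in immature B cells alone and lower than the 64.0% of all merged regions. It was also lower than the 63.8% for plasma cells alone and the 73.2% for pc-BMACs alone. The share was 69.5% for plasma cells with pc-BMACs, 63.2% for immature B cells with pc-BMACs and 76.9% for all 6 lists. With all genes of the table in place of protein-coding genes the members' share was 64.8%. Regions are not replicates, and these shares carry no test. By chromosome, members made up between 3.46% of the regions (chromosome X) and 6.08% (chromosome 13), and 0 of 20 on chromosome Y.

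**Figure D2:**
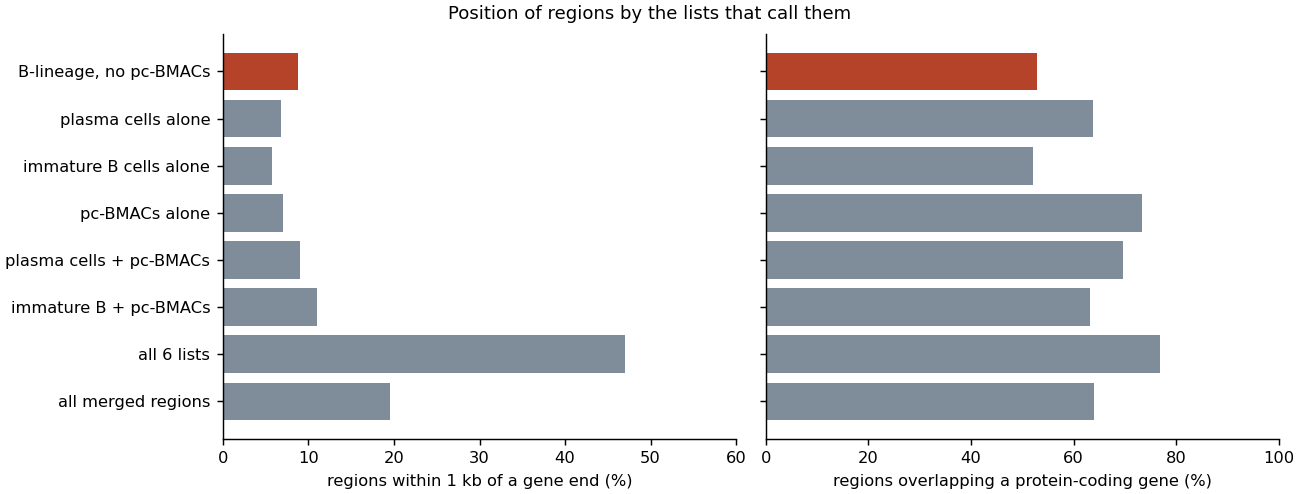
Percentage of regions within 1 kb of a gene end (left) and overlapping a protein-coding gene (right), for each pattern of lists and for all merged regions. The members (red) stand at 8.77% and 52.8%, the regions of all 6 lists at 47.0% and 76.9%.

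Starts of the genes nearest to members were called in most cases in all 3 groups. Over 2168 members more than 1 kb from a gene end whose gene had a start in the table, plasma cells 1 and 2 called a start in 70.2% and 71.2%. The shares were 73.3% and 73.4% for immature B cells 1 and 2 and 68.1% and 66.1% for pc-BMACs 1 and 2. Of these members, 74 have a start that itself lies in a member, which the rule makes absent from pc-BMACs. Over the 2094 others, plasma cells stood at 69.1% and 70.2%, immature B cells at 72.3% and 72.4% and pc-BMACs at 70.0% and 67.9%. There pc-BMACs 1 was above plasma cells 1. With such starts kept, the pc-BMAC shares for regions of immature B cells alone, which share the libraries, were 69.0% and 67.8%. For all assigned regions they were 75.3% and 74.1%. With such starts left out, the shares were 70.1% and 68.9% for immature B cells alone and 76.1% and 74.9% for all assigned regions.

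Where members covered starts, the promoters differed in sequence from those of regions in all 6 lists. The 178 members over a start, with others that reach into the 250 bases before or 50 bases after it, overlapped 222 promoter windows of 300 bp from 202 genes. Their median GC content was 57.2% with 10 CpG dinucleotides, against 62% and 22 for 11620 windows of regions in all 6 lists and 52.7% and 7 for all 32851 windows of the table. Of 24 motifs searched on both strands, RUNX (TGTGGTT) was in 11.3% of the members' windows, 3.51% of the windows of all 6 lists and 5.27% of every window. PU.1 (GAGGAAGT) was in 8.56%, 3.13% and 3.20%, and the E box CAGCTG in 25.2%, 14.3% and 16.3%.

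The ETS motif CCGGAAG had the opposite order, at 5.86% of the members' windows, 19.97% of those of all 6 lists and 8.86% of every window. The GC box of SP and KLF factors, spelled GGGCGGG, was in 32.9%, 50.5% and 25.6%. In windows of regions called in immature B cells alone, RUNX stood at 6.45% and PU.1 at 7.26%, and in those shared by plasma cells and pc-BMACs at 3.91% and 4.69%, while CAGCTG was in 25.8% of the latter. With 1 window per gene the members' shares were 11.9% for RUNX and 8.42% for PU.1. The RUNX count is 25 windows and the PU.1 count 19, and base composition differs between the sets, whose part was not tested. RUNX matches lay before the start at Igll1, Runx3, Prg3 and Spp1 and in the 50 bases after it at Il7r, Cxcr3 and Tnfsf14, genes picked here from the 24 with a match.

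**Figure D3:**
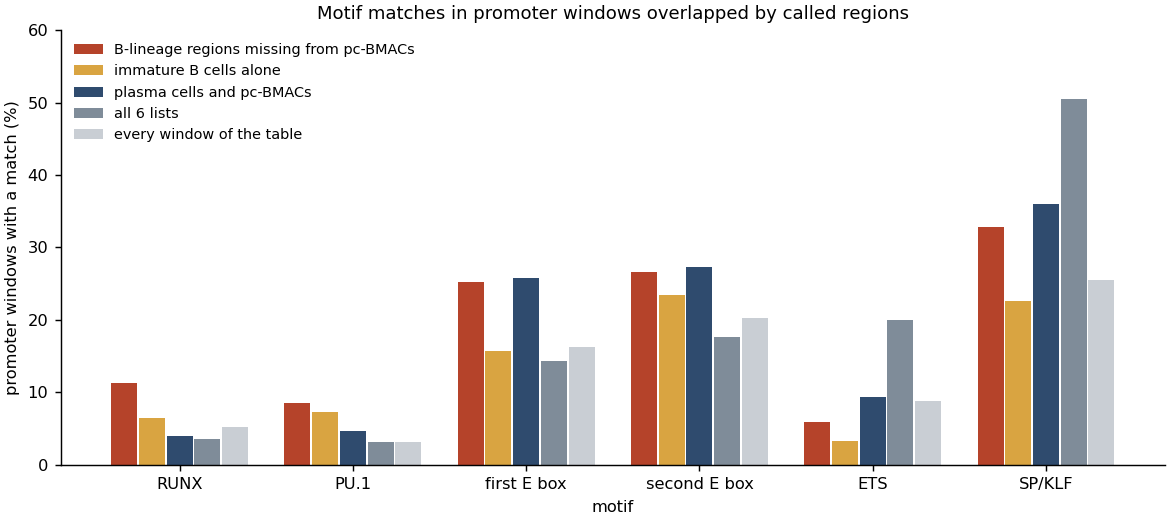
Percentage of 300 bp promoter windows with a match to 6 of the 24 motifs (first E box CAGCTG, second CAGGTG), for windows overlapped by members, by regions of 3 other patterns, and for every window of the table. Members' windows stand highest for RUNX (11.3%) and PU.1 (8.56%) and below those of all 6 lists for ETS (5.86%) and SP/KLF (32.9%).

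Some members lay close together. Another member lay within 10 kb of 538 members (15.9%, and 7.48% of those under the 50% rule), compared with 24.1% for regions of immature B cells alone, 18.9% for those shared by plasma cells and pc-BMACs and 10.5% for those of plasma cells alone, sets that also differ in size. The longest runs were of 5 members. One, chr1:40045689-40061763, spanned 16.1 kb between Map4k4, a signalling kinase, and Il1r2, the decoy receptor of interleukin 1, and all 5 regions in it were members. The other, chr2:101598276-101625601, spanned 27.3 kb across Iftap and the Rag2 start, and 5 of its 6 regions were members.

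Runs of 4 members lay at Dio2 (a deiodinase that activates thyroid hormone; 16.2 kb) and at Erg (20.7 kb). In the Il1r2 and Map4k4 run the plasma cell peaks were 150 to 322 bp wide and the immature B cell peaks 306 to 612 bp. In the Iftap and Rag2 run the widest member inside Iftap measured 292 and 498 bp in plasma cells and 999 and 507 bp in immature B cells. At all 10 members of these runs the peak of immature B cells 1 was wider than both plasma cell peaks.

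The 3059 members within 100 kb of a protein-coding gene fell to 2237 nearest genes, 1682 of which had 1 member, and the other 318 had no such gene. A nearest gene is not shown to be the one a region acts on. Over all assigned regions the share of members was 4.68%, and over the 15455 genes with a region the median share was 0. The 20 genes with most members held 112 of them, 5 to 8 each. In 411 of the 2237 genes (18.4%) no pc-BMAC list had any region, beside 13.1% of the 15455 genes, a difference that the choice of members favours. Among genes with at least 3 members it was so for 22 of 175 (12.6%). This stands beside 477 of 7697 genes (6.20%) with at least 3 regions, and 217 of 1953 (11.1%) with a member and at least 3 regions. The 22 included Erg, Ky, Dio2, Anxa1 (annexin A1), Iftap, Vipr1 (a receptor of vasoactive intestinal peptide), Gpr25 and Il7r.

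Erg, an ETS transcription factor of blood stem and progenitor cells and megakaryocytes, had 7 members among 27 regions. Plasma cells 1 and 2 each called 8 of the 27, immature B cells 26 and 17, and the pc-BMAC libraries none. Its widest member, chr16:95426982-95429087 inside the gene, was 954 and 1216 bp wide in plasma cells and 2106 and 1131 bp in immature B cells, and the nearest pc-BMAC peak was 263490 bp away. A further member, chr16:95459407-95459783, lay 59 bp from an Erg transcription start and was 150 bp wide in both plasma cell libraries and 370 and 268 bp in immature B cells. The plasma cell peaks at that start were at the smallest width, while those of the widest member were not.

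Il7r, the interleukin-7 receptor α chain that B cell precursors need, had 3 members among 8 regions, and plasma cells called 3 and 4 of them, immature B cells 8 and 6 and pc-BMACs 0 and 0. Its start member, chr15:9529420-9530750, was 231 and 261 bp wide in plasma cells and 1331 and 535 bp in immature B cells. The nearest pc-BMAC peak was 41119 bp away. Igll1 had 2 members among 3 regions and no pc-BMAC region. The other members of progenitor genes lay at Cd2 (4 of 15 regions), Gfi1b (3 of 7), Satb1 (2 of 9), Meis1, Sox4 and Myb (1 each).

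Pmepa1, a TGF-β target that dampens Smad signalling, had 7 members among only 11 regions. Plasma cells called 10 and 10 of the 11, immature B cells 10 and 9 and pc-BMACs 3 and 2. Its widest member, chr2:173266912-173268246 inside the gene, was 189 and 309 bp wide in plasma cells and 1335 and 802 bp in immature B cells. Unlike at Erg, plasma cells and immature B cells called about as many of this gene's regions.

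Pde4d, a phosphodiesterase that breaks down cyclic AMP, had 8 members among 37 regions, all inside the gene. Plasma cells called 17 and 18 of the 37, immature B cells 34 and 31 and pc-BMACs 7 and 2. Its widest member, chr13:109902366-109904301, was 716 and 1002 bp wide in plasma cells and 1936 and 1662 bp in immature B cells. Tmem108 also had 8 members, among 29 regions, of which plasma cells called 13 and 16, immature B cells 27 and 23 and pc-BMACs 4 and 3.

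Ky, a gene known for its role in muscle, had 5 members among 7 regions. Plasma cells called 6 and 5 of the 7, immature B cells 7 and 6 and pc-BMACs none. Ly86, whose product MD-1 pairs with the B cell surface protein CD180, had 5 members among 22 regions, and pc-BMACs called 8 and 6. At Cux1, Zmiz1, Med13l and Rad51b, also with 5 members each, pc-BMACs called 14 to 26 regions, so that at these genes members were a small share of a well-called locus.

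**Figure D4:**
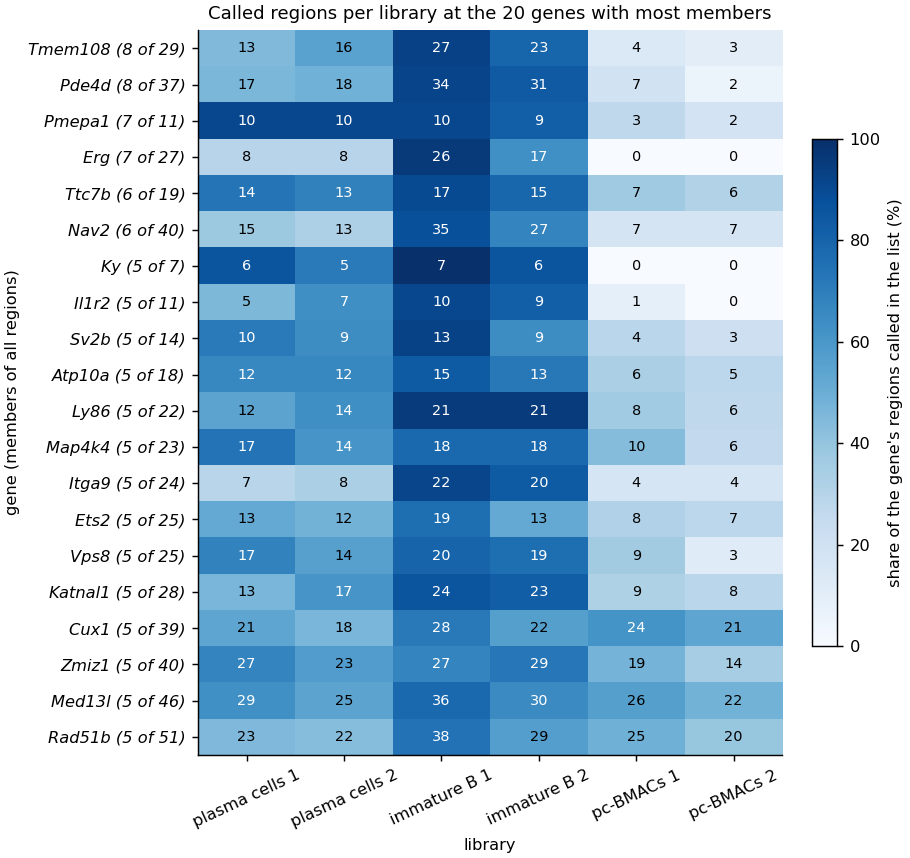
Number of regions called in each library at the 20 genes with most members (rows, with members of all regions in parentheses); the colour gives the share of the gene's regions called. Erg and Ky have 0 called regions in both pc-BMAC libraries, while Cux1, Zmiz1, Med13l and Rad51b have 14 to 26.

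By gene list, members were most frequent at progenitor receptors and factors, with 22 of 148 regions (14.9%), at cytokines and their receptors, with 17 of 118 (14.4%), and at V(D)J recombination and surrogate light chain genes, with 4 of 32 (12.5%). Among assigned regions called in all 4 plasma cell and immature B cell lists, where 12.4% were members, these lists stood at 45.8%, 30.4% and 30.8%. Erg alone held 7 of the 22 progenitor members and is also counted under Runx and ETS factors. Under the rule of 50% coverage the lists held 5, 6 and 3 members against 2.37% of all assigned regions, which is 3.38%, 5.08% and 9.38%. Under it the order of the lists was not kept, and dendritic cell (5.56%), Runx and ETS (5.02%), T, NK and innate lymphoid (4.08%), TGF-β (3.61%) and erythroid genes (3.57%) also stood above progenitor genes. Without pc-BMACs 1 the V(D)J list held 7 (21.9%, beside 6.75% of all assigned regions). The lists were chosen with results of these data known, and no test was run on them.

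Among cytokine genes, Ifng, the gene of interferon γ, had 4 members among 15 regions, and plasma cells called 5 and 6 of them, immature B cells 15 and 14 and pc-BMACs 1 and 1. Its widest member, chr10:118468815-118469628 and 22921 bp outside the gene, was 514 and 560 bp wide in plasma cells and 813 and 758 bp in immature B cells. Ifngr1, a chain of the interferon γ receptor, had 3 of 8 regions as members and 1 region in each pc-BMAC list. The neighbouring receptor genes Il4ra and Il21r had 3 members each, among 7 and 8 regions. The widest Il21r member, named after its values were seen, chr7:125634801-125637143, was 1039 and 1202 bp wide in plasma cells and 2343 and 1664 bp in immature B cells. Il12a had 2 members and Il10ra and Il2ra 1 each.

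Runx and ETS factors held 27 members among 299 regions (9.03%), with 15 (5.02%) under that 50% rule. After Erg came Ets2 with 5 members of 25 regions and Runx3 with 4 of 28, and Runx1, Runx2, Etv6 and Elk3 had 2 each. TGF-β signalling genes held 13 of 166 (7.83%), 7 of them at Pmepa1, and cyclic AMP genes 17 of 266 (6.39%), 8 of them at Pde4d. The cyclic AMP list held 26 members (10.0%) without plasma cells 1 and also 26 (10.0%) without pc-BMACs 1, where all assigned regions stood at 7.10% and 6.75%.

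Lists of other cell types also held members, but some of these members are counted in more than 1 list. The 4 at Ifng are also counted among cytokine genes, and the 3 at Gfi1b among both progenitor and erythroid genes. The 2 at Id2 are in both the T, NK and innate lymphoid list and the dendritic list. The 2 at Runx2 are in both the dendritic list and the Runx and ETS list. T, NK and innate lymphoid genes had 9 members of 98 regions (9.18%), at Ifng, Id2, Tcf7 and Prf1, and 14 (15.1%) without plasma cells 1, where all assigned regions stood at 7.10%. Prf1, the gene of the pore-forming protein perforin, had 3 regions in each plasma cell library, 1 in each immature B cell library and 0 in both pc-BMAC libraries. Its member at the start was 289 and 187 bp wide in plasma cells and 555 and 271 bp in immature B cells. Myeloid genes had 8 of 79 (10.1%), 2 each at Adgre1 and Itgam, but 1 (1.27%) under the 50% rule, below the 2.37% of all assigned regions. Dendritic cell genes, at 7 of 126 (5.56%), and erythroid genes, at 3 of 56 (5.36%), lay near the 4.68% of all assigned regions. The dendritic list held 13 (10.4%) without plasma cells 1 and 11 (8.80%) without pc-BMACs 2, where all assigned regions stood at 7.10% and 5.23%. The erythroid members all lay at Gfi1b, and that list's share fell below that of all assigned regions without plasma cells 2 (5.36% beside 6.04%) and without pc-BMACs 1 (5.45% beside 6.75%).

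B cell identity transcription factors had 27 members among 495 regions (5.45%), close to the 4.68% of all assigned regions, with 9 (1.82%, beside 2.37% of all assigned regions) under the 50% rule and 41 (8.38%, beside 7.10%) without plasma cells 1. Bach2 and Foxp1 had 4 members each, of 60 and 99 regions, Bcl11a and Ebf1 3 each, of 30 and 46, and Pax5, which sets B cell identity, 2 of 20. Of the 20 Pax5 regions, plasma cells called 10 and 8, immature B cells 15 and 14 and pc-BMACs 7 and 5. B cell receptor signalling genes stood at 14 of 295 (4.75%), with 22 members (7.56%) without plasma cells 1, 24 (8.51%) without pc-BMACs 1, beside 7.10% and 6.75% of all assigned regions, and 7 (2.37%) under the 50% rule. Antigen presentation genes stood at 5 of 115 (4.35%), with 2 at Ciita, the class II transactivator. They held 10 (8.77%, beside 6.75%) without pc-BMACs 1 and 1 under the 50% rule.

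Genes of antibody secretion held few members. None of 95 regions of secretory pathway and unfolded protein response genes was a member, beside 4.68% of all assigned regions. Nor was any of the 41 called in all 4 plasma cell and immature B cell lists, beside 12.4% of all such assigned regions. Under the 50% rule the list held 1 member, without plasma cells 1 it held 3 and without pc-BMACs 1 it held 2. Plasma cell genes had 5 members of 230 (2.17%, beside 4.68% of all assigned regions), 2 of them at Prdm1 and 1 each at Irf4, Sdc1 and Cd28. Only 58 of the 230 were called in all 4 plasma cell and immature B cell lists. Of these 58, 8.62% were members, beside 12.4% of all such assigned regions. The Irf4 member is also counted among B cell identity transcription factors. At Xbp1, plasma cells called 6 and 6 regions, immature B cells 5 and 4 and pc-BMACs 6 and 6, with 0 members. Apoptosis and survival genes had 2 of 109 (1.83%), and NF-κB and Aire genes 3 of 119 (2.52%). Of their regions called in all 4 plasma cell and immature B cell lists, 4.44% and 6.12% were members. Without pc-BMACs 1 the apoptosis list held 5 (5.0%, beside 6.75% of all assigned regions). Aire itself had 2 regions, both called in every library, including those of the groups sorted as AireGFP-, so that none was a member.

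**Figure D5:**
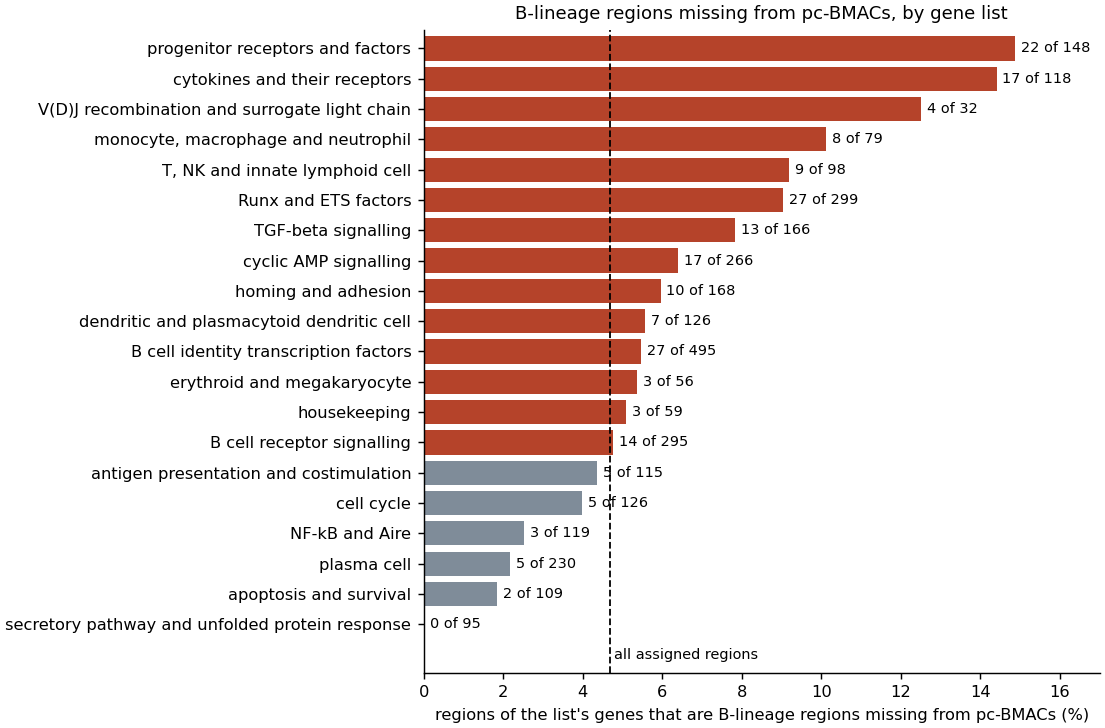
Percentage of the regions of each gene list that are members, with their counts; the dashed line is the 4.68% of all assigned regions, red bars lie above it and grey bars below. Progenitor, cytokine and V(D)J genes stand highest, at 14.9%, 14.4% and 12.5%, and secretory pathway genes at 0 of 95.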

How the data were processed

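ATAC-seq peak lists of 6 libraries were analysed, 2 for each cell population. The authors deposited 1 list per library, with peak positions and a score that is 1000 in every row and was not used. Per the submitters' processing notes, which assign no roles, the tools were HOMER 4.10, Bowtie2 2.3.3 and bedtools, on the build mm10. How peaks were called and intersected is not given in the sources used here. Read depth is unknown, so no interval that needs it was computed.

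Peaks were merged at an overlap of 1 bp, and summed peak width per region and library was taken from the deposited positions (Python 3.11.15, numpy 2.4.6, pandas 2.3.3, scipy 1.17.1). Regions went to the nearest protein-coding gene within 100 kb in a RefSeq table of GRCm38.p6. Promoter windows and starts came from a RefSeq table of the same build with no entry for chromosome 18. The merging and distance steps were tested on simulated lists. Motifs were searched in promoter windows, a choice made after seeing the data, because no genome sequence was used here. The member rule and the 20 gene lists were chosen with earlier results of these data known. Named genes were the 20 with most members, up to 3 per list, and 11 fixed names, and others are counts or were chosen after their values were seen. Regions with coordinates were the 10 widest members, the widest member of a named gene, members near starts of list genes, the runs, the member nearest to a pc-BMAC peak and 1 at Il21r.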

Additional observations from a re-analysis of the deposited data

How the results depend on the processing

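Where a library counted only if its peaks covered 50% or more of the region, 1697 regions met the rule. Of the 3377 members, 1083 (32.1%) were among them or overlapped one. The rest of the 1697 held a pc-BMAC peak over less than 50% of the region, which shortens the distance given for this rule. Of the 1697, 10.5% lay within 1 kb of a gene end, 55.9% overlapped a gene and 7.48% had another within 10 kb, the median distance to a pc-BMAC peak was 3738 bp, and they fell to 1329 genes. With the widest 17035 peaks of each list the values were 853 regions, 17.5%, 57.9%, 10.9%, 18811 bp and 690 genes. A window of 2 kb gave 12.6% near a gene end, all genes of the table gave 64.8% overlapping a gene, pc-BMACs 2 alone gave a distance of 17803 bp, windows of 5 and 50 kb gave 10.1% and 40.3% with another member, and overlapped genes only gave 1380 genes. Leaving out 1 library in turn gave 3594 to 5018 members, 15.7% to 18.7% with another member within 10 kb, and a width ratio of 0.50 to 0.671. Plasma cells were narrower under every alternative run. Of the 20 lists, 17 held a count more than 1.5 times away from the reported one under the 50% rule. No paired analysis was possible because membership comes from no test, and the groups of the width test share only the number R4. The planned motif search in the regions was not run, since it needs a genome.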

Other observations

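Wide regions that a single list lacked were found for every library. Regions called in 5 lists and missing from 1, with a mean width of at least 2000 bp in the other 5, numbered 1 and 2 for plasma cells 1 and 2, 2 and 1 for immature B cells 1 and 2, and 5 and 1 for pc-BMACs 1 and 2. They included Jun (6130 bp), missing from immature B cells 1, Egr1 (3895 bp), missing from pc-BMACs 1, and Fosb (4464 bp), missing from pc-BMACs 2. Jun, Fosb and Junb encode AP-1 subunits, and Egr1 is an immediate early gene. The widest was at Sfi1 (8979 bp), missing from plasma cells 2. These genes were named after their values were seen.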
